A study of Homo sapiens with 6 samples.

Results

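The HOXC cluster was examined as a target region of SMAD2/3 in 2 human triple-negative breast cancer lines stimulated with TGFβ3. It comprises the listed ChIP-seq peaks with a midpoint on chromosome 12 (hg19) between 54320000 and 54600000, a 280 kb window from HOXC13 to HOXC4 with the flank beyond HOXC4. In all, 50 of 20600 listed peaks lay in it. The window was chosen by the number of peaks listed there, so the counts of peaks in it are a description and no evidence of their own. The lines were Hs578T and BT549, both established breast cancer lines. Chromatin was taken at 1.5 h and at 16 h of TGFβ3 and precipitated with 1 antibody that recognises both SMAD2 and SMAD3. There was 1 library per line and time, so no difference was tested and no replicate error can be given. An input DNA sample of each untreated line was not analysed here. The samples included no SMAD2/3 ChIP from unstimulated cells, so no value here measures a response to TGFβ3. Both lines were grown with fetal bovine serum and insulin.

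SMAD2 and SMAD3 are phosphorylated by the activated TGFβ receptor, join SMAD4 and enter the nucleus, where they bind DNA mostly together with other transcription factors. The HOXC genes encode homeodomain transcription factors that give cells their position along the body axis, and their order on the chromosome follows the order in which they are used along that axis. From low to high coordinates the cluster starts with the posterior genes HOXC13, which acts in hair and nail formation, HOXC12, HOXC11 and HOXC10, the last of which acts in the lumbar spinal cord and hindlimb. They are followed by HOXC9 and HOXC8, which pattern the thoracic level, and by HOXC6, HOXC5 and HOXC4. HOTAIR, a long noncoding RNA studied in breast cancer metastasis, is transcribed antisense beside HOXC11. Gene positions on hg19 were not used here, so a peak is given by its coordinates and not by its nearest gene.

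The promoter that RefSeq (GRCh38.p14) gives to both HOXC4 and HOXC5 is shown because it is the HOXC promoter sequence at hand, for 2 of the 9 genes. It covers 250 bases before and 50 bases after the annotated start, on the plus strand at chr12:54016638-54016937 of GRCh38. Whether a peak lies on it was not examined, since the peaks are on hg19. Capitals mark GGCGCC, a GC-rich sequence that SMAD3 can bind.
HOXC4 and HOXC5: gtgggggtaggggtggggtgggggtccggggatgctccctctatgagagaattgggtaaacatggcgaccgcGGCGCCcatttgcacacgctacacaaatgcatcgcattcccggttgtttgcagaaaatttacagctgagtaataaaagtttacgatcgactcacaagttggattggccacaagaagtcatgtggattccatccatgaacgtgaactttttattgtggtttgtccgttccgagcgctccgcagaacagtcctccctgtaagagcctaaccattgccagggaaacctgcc
GGCGCC, which reads the same on both strands, occurs once in it, starting at base 73, and occurs in 19.2% of the 35116 RefSeq promoters of that length. The SMAD sequence CAGACA and the AP-1 sequence TGANTCA, searched on both strands, were not in this window. They occur in 16.9% and 7.71% of all promoters.

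In both lines SMAD2/3 peaks were listed in the HOXC window, and the Hs578T peaks reached farther toward its high-coordinate end. Hs578T had 16 HOXC peaks at 1.5 h and 19 at 16 h, and BT549 had 5 and 10. These were 1.17% (0.719 to 1.88, 95% Wilson interval) and 1.03% (0.659 to 1.6) of the Hs578T lists of 1373 and 1849 peaks. Of the BT549 lists of 9225 and 8153 peaks they were 0.0542% (0.0232 to 0.127) and 0.123% (0.0666 to 0.226). Intervals cover counting error only, and the read depth behind each list is unknown. The longer BT549 lists thus held fewer HOXC peaks than the shorter Hs578T lists at each time. With calls less than 1 kb apart counted as 1 place, the counts were 15, 16, 3 and 7 in the same order.

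**Figure D1:**
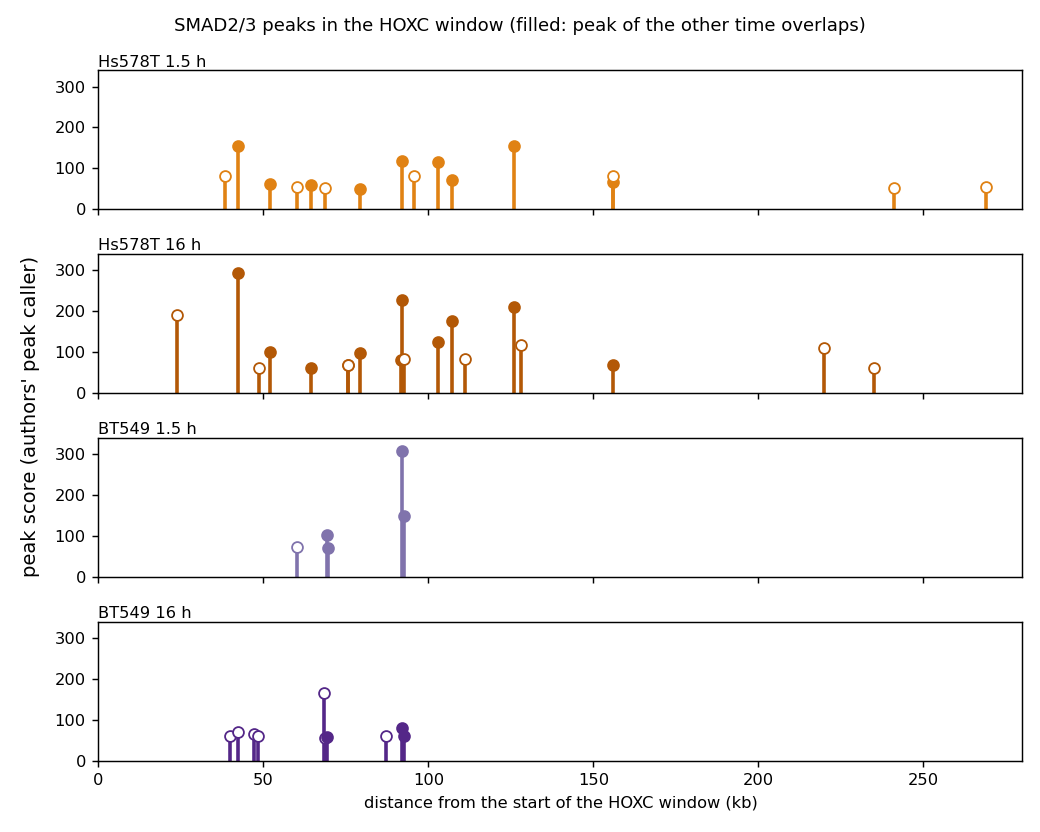
SMAD2/3 peaks in the HOXC window, by library. The x axis is the distance in kb from the low-coordinate end of the window and the height is the peak score of the authors' peak caller; filled circles overlap a peak of the other time in the same line. Most peaks of all 4 libraries lie between 40 and 120 kb, and beyond 160 kb there are 4 peaks, all from Hs578T.

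Along the window the peaks were unevenly spread. Between 40 and 80 kb from its start Hs578T had 6 peaks at 1.5 h and 7 at 16 h, and BT549 had 3 and 6. In the next 40 kb the counts were 4 and 6 in Hs578T and 2 and 3 in BT549. The first 40 kb, the HOXC13 end, held 1 peak in each list except BT549 at 1.5 h, which had 0. From 120 to 160 kb Hs578T had 3 peaks at each time and BT549 had 0. All BT549 peaks ended at or before 54412748, and 12 regions, with 16 Hs578T peaks, began after that position. The longest stretch without any peak, 63.7 kb, ran from 54476573 to 54540322, and neighbouring regions were a median of 3.97 kb apart.

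In Hs578T the nearest peaks outside the window lay far from it. The stretch from 49673773 to 57610932, 7.94 Mb in length, was set by the nearest Hs578T peaks on either side of the window. Its Hs578T peaks, 16 at 1.5 h and 19 at 16 h, therefore all lay in the HOXC window by construction. BT549, whose peaks did not set the limits, had 37 and 33 peaks in the same stretch, of which 32 and 23 lay outside the window. Long stretches without a Hs578T peak occurred elsewhere too, as from 14.8 to 24.2 Mb above the window centre at 1.5 h. Whether the spacing is particular to HOXC was not tested. The HOXC peaks were 29.1% of the 55 chromosome 12 peaks of Hs578T at 1.5 h and 22.9% of the 83 at 16 h, against 1.26% of 398 and 2.82% of 354 in BT549. Around the limits of the window, the outermost Hs578T peaks inside lay 38.4 kb and 11.4 kb from its low and high ends at 1.5 h and scored 82.0 and 55.4. At 16 h they lay 23.7 kb and 44.8 kb from the ends and scored 192 and 62.1. The nearest Hs578T peaks outside were 5575 kb below and 3011 kb above at 1.5 h, with scores of 60.5 and 57.7, and 4646 kb and 3011 kb away at 16 h, with 60.1 and 67.5. In BT549 the outermost peaks inside were 60.1 kb and 187 kb from the ends at 1.5 h, with scores of 73.2 and 149, and 39.8 kb and 187 kb at 16 h, with 61.1 and 60.3. Its nearest peaks outside were 180 kb below and 153 kb above at 1.5 h, with 88.7 and 68.5, and 1645 kb and 23.7 kb away at 16 h, with 56.5 and 73.2.

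**Figure D2:**
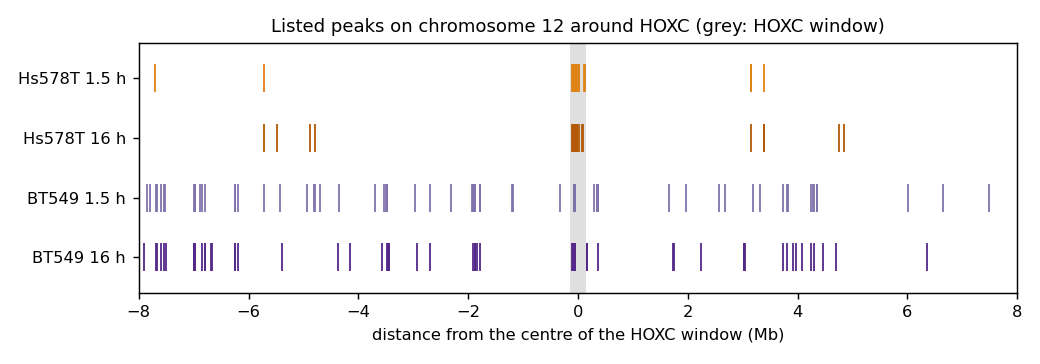
Each tick is a listed peak on chromosome 12, by library, against its distance in Mb from the centre of the HOXC window (grey band). The Hs578T ticks near the centre all fall in the band. The stretch between the nearest Hs578T peaks outside the window is otherwise empty in Hs578T by this choice of limits. BT549 has 32 and 23 further peaks in it at 1.5 h and 16 h.

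The score of a peak is the value the authors' peak caller gave it and depends on read depth, so scores are set beside the rank in the same list, with rank 1 for the highest. HOXC peaks spanned most of the range of ranks, and none led a list. The best-ranked HOXC peak of Hs578T at 1.5 h was rank 75 of 1373 and at 16 h rank 80 of 1849. In BT549 it was rank 500 of 9225 at 1.5 h and rank 1045 of 8153 at 16 h. The median HOXC score was 68.5 at 1.5 h and 97.2 at 16 h in Hs578T, beside 60.7 and 61.0 over the whole lists. In BT549 it was 102 and 61.0, beside 88.5 and 76.6.

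At 1.5 h, 4 of the 16 Hs578T HOXC peaks had a score of at least 100, against 12.0% of that list, and 9 of 19 had at 16 h, against 18.9%. In BT549, 3 of 5 HOXC peaks reached it at 1.5 h, against 41.9% of the list, and 1 of 10 at 16 h, against 33.4%. Hs578T thus had more HOXC peaks past this score at 16 h, and BT549 had more at 1.5 h. The peaks also differed in width. In Hs578T 7 of 16 were under 150 bp at 1.5 h, against 64.2% of that list, and 1 of 19 at 16 h, against 47.6%. None of the BT549 HOXC peaks was that narrow, against 12.3% and 15.7% of its lists. The median width of the Hs578T HOXC peaks was 152 bp at 1.5 h and 272 bp at 16 h.

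About as many Hs578T peaks in the cluster recurred at the other time as did not. Of the 16 HOXC peaks at 1.5 h, 9 overlapped a 16 h peak by at least 1 bp, or 56.2% (33.2 to 76.9), beside 27.8% over the whole list. Of the 19 at 16 h, 10 overlapped a 1.5 h peak, or 52.6% (31.7 to 72.7), beside 20.1%. Without peaks under 150 bp, the HOXC shares were 55.6% (5 of 9) at 1.5 h and 33.3% (6 of 18) at 16 h. The whole-list shares under this limit were not computed, so those given above are no measure for these 2 values. All 4 peaks that scored 100 or more at 1.5 h were among those found again at 16 h, and the 7 that were not found again scored between 52.4 and 82.1, a range that overlaps that of the other recurring peaks. Of the 9 peaks that scored 100 or more at 16 h, 6 had a 1.5 h peak. The whole-list shares for peaks of that score were not computed. Whether high-scoring peaks recurred more often in HOXC than elsewhere is therefore not known. In BT549, 4 of 5 HOXC peaks at 1.5 h overlapped a 16 h peak, or 80.0% (37.6 to 96.4), beside 41.4%. At 16 h a 1.5 h peak lay on 3 of its 10 HOXC peaks, or 30.0% (10.8 to 60.3), beside 46.5%. The number of listed peaks, by which the window was chosen, enters all of these shares, so they are a description.

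Peaks that touched were joined into 30 regions, 25 with a Hs578T peak and 11 with a BT549 peak. Of these, 9 were listed at both times in Hs578T and 3 at both times in BT549, while 16 were listed in a single library. The leading Hs578T region toward the HOXC13 side was 54361949 to 54362461. It scored 154 at 1.5 h, rank 76, and 293 at 16 h, rank 80. BT549 had no peak there at 1.5 h and scored 70.6 at 16 h, rank 4711. At 1.5 h this score was just below that of 54445811 to 54446316, toward the HOXC4 end, which scored 155 at 1.5 h, rank 75, and 211 at 16 h, rank 142, with no BT549 peak.

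A further 3 Hs578T regions of both times lay between 54371915 and 54399440. The region of 54371915 to 54372136 scored 60.6 at 1.5 h and 101 at 16 h. That of 54384222 to 54384392 scored 58.1 and 60.6, almost the same value at both times. That of 54399136 to 54399440 scored 50.04 at 1.5 h, rank 1372 of 1373, and 97.2 at 16 h, rank 359 of 1849. It was thus next to last in the 1.5 h list and in the upper part of the 16 h list. None of these 3 had a BT549 peak.

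Toward the HOXC4 end, 54422610 to 54422977 scored 116 at 1.5 h, rank 128, and 126 at 16 h, rank 249. The region of 54427221 to 54427623 scored 71.1, rank 350, and 177, rank 176. With a ratio of 2.48 between the 16 h and the 1.5 h score, it had the highest ratio among the 9 regions. Farther toward high coordinates, 54475499 to 54475729 scored 65.8 and 68.9. A second 1.5 h peak, 54476406 to 54476573, lay 0.782 kb beyond the 1.5 h peak of that region. This second peak scored 80.2 and had no 16 h peak on it. BT549 had no peak in any of these regions.

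The region of 54411590 to 54412271 was listed in all 4 libraries, the one HOXC region of which this is true. It scored 119 in Hs578T at 1.5 h, rank 119, and 226 at 16 h, rank 128. In BT549 it scored 309 at 1.5 h, rank 500, the best HOXC rank of that list, and 80.2 at 16 h, rank 3797. It thus stayed among the top 8.67% and 6.92% of the Hs578T lists, and stood at 5.42% of the BT549 list at 1.5 h and at 46.6% at 16 h. A neighbouring region began 113 bp beyond its end, from 54412385 to 54412748, and was listed in Hs578T at 16 h with a score of 83.0 and in BT549 with 149 at 1.5 h and 60.3 at 16 h. The nearest Hs578T peak at 1.5 h was 350 bp from the 16 h peak there. At 16 h Hs578T had 3 separate calls in these 2 regions, which together span from 54411590 to 54412748.

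Scores of the regions listed at both times were higher at 16 h in Hs578T and lower at 16 h in BT549. In Hs578T 9 of 9 HOXC regions scored higher at 16 h, with ratios from 1.04 to 2.48 and a median of 1.66. Over all 350 such regions of Hs578T, 77.7% did, with a median ratio of 1.44. In BT549 0 of 3 HOXC regions scored higher at 16 h, with ratios of 0.260, 0.403 and 0.574. Over all 3628 such regions of BT549, 31.1% scored higher at 16 h and the median ratio was 0.796. The HOXC regions thus moved the way the whole lists moved in each line. By rank in percent of the list, 6 of the 9 Hs578T regions stood better at 16 h, beside 60.6% over the list, and 0 of the 3 BT549 regions, beside 44.3%. The depth of the libraries enters all of these scores, and its part was not tested.

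**Figure D3:**
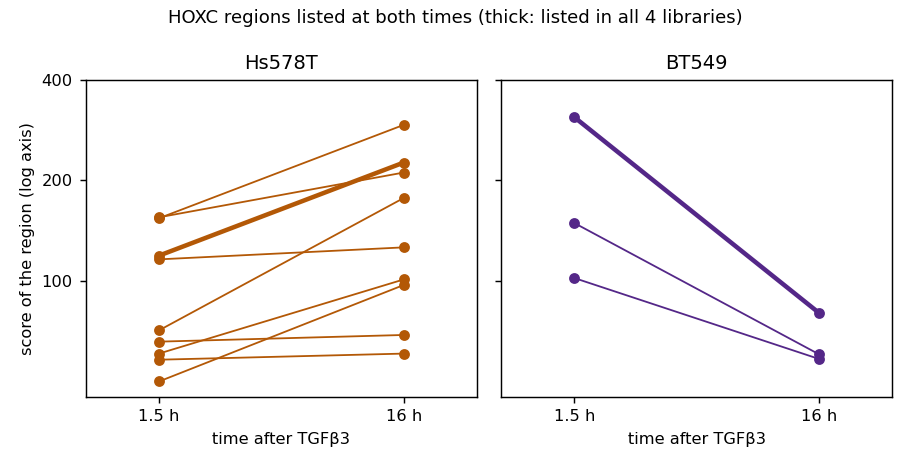
Score of each HOXC region listed at both times of a line, at 1.5 h and 16 h after TGFβ3, on a log axis. Each line is 1 region, with the highest score taken where a list has several peaks in it, and the thick line is the region listed in all 4 libraries. All 9 Hs578T lines rise and all 3 BT549 lines fall.

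Regions listed at only 1 time were led in Hs578T by a 16 h peak from 54343559 to 54343830, the peak nearest to the HOXC13 end of the window. It scored 192, rank 158 of 1849, and the nearest 1.5 h peak was 14424 bp away. The other 16 h peaks without a 1.5 h overlap scored between 61.0 and 118. They included a peak of 118 at 54448173 to 54448466, 1870 bp from a 1.5 h peak. Another, farther toward high coordinates, scored 110 at 54540322 to 54540603. A pair of calls at 54395350 to 54395556 and 54395579 to 54395743, 22 bp apart, scored 68.3 and 69.8. The highest 1.5 h scores without a 16 h overlap were 82.1 at 54415477 to 54415627 and 82.0 at 54358255 to 54358449.

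BT549 had a group of calls around 54388159 to 54389639. At 16 h it had 3 peaks there, of which 54388159 to 54388441 scored 167, rank 1045 and the best HOXC rank of that list. It had no 1.5 h peak, though 1 began 662 bp away. The other 2 scored 55.9 and 58.4. At 1.5 h BT549 had 2 peaks in the group, at 54389104 to 54389384 and 54389403 to 54389639, with scores of 102 and 71.3, which overlapped the 16 h peak of 58.4. Hs578T had 1 peak in the group, at 1.5 h, from 54388527 to 54388680 with a score of 52.8, rank 1200, which overlapped the BT549 16 h peak of 55.9. The highest BT549 score in the group thus changed place between the times.

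Between the lines, 6 of the 30 regions were shared at any time. At 1.5 h, 2 of the 16 Hs578T HOXC peaks overlapped a BT549 peak, or 12.5% (3.50 to 36.0), beside 11.2% over the list. At 16 h 4 of 19 did, or 21.1% (8.51 to 43.3), beside 10.3%. This 16 h share was 1 of 19 with an overlap of 50% of each peak, and 0 when scores of at least 100 or lists of equal length were required. The whole-list shares under these 3 settings were not computed. Under the last 2 the BT549 list held 1 HOXC peak at 16 h. Counted over the BT549 HOXC peaks, 2 of 5 met a Hs578T peak at 1.5 h, or 40.0% (11.8 to 76.9), beside 1.59%, and 4 of 10 at 16 h, or 40.0% (16.8 to 68.7), beside 2.17%. Under the same 3 settings the BT549 share at 16 h was 1 of 10, 0 of 1 and 0 of 1. The size of the share thus depends on which list is counted. The number of Hs578T peaks in this window enters the BT549 shares, and the window was chosen by the number of peaks listed in it.

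Apart from the 3 regions already given with both lines, 54361949, 54411590 and 54412385, the shared regions had low scores. That of 54388527 to 54388954, in the group described above, scored 52.8 in Hs578T at 1.5 h and 55.9 in BT549 at 16 h. That of 54379982 to 54380254 was listed at 1.5 h only, with 54.8 in Hs578T, rank 927, and 73.2 in BT549, rank 6291. That of 54368345 to 54368622 was listed at 16 h only and scored 61.0 in each line, rank 953 in Hs578T and rank 6131 in BT549. The remaining 19 Hs578T regions had no BT549 peak and the remaining 5 BT549 regions no Hs578T peak. A place missing from a list is not thereby shown to be unbound.

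The same values were taken in windows of 280 kb around the other HOX clusters and directly beside HOXC. In Hs578T the HOXC counts of 16 and 19 stood beside 23 and 22 in the HOXA window on chromosome 7, 14 and 21 in HOXB on chromosome 17, and 9 and 10 in HOXD on chromosome 2. The first Hs578T peaks of the HOXB window began at 46570016 at 1.5 h and 46570075 at 16 h, at the window start of 46570000. The HOXB values therefore depend on where that window was set, and limits were varied for HOXC only. The windows directly before and after HOXC held 0 Hs578T peaks at either time. In BT549 the HOXC counts of 5 and 10 stood beside 3 and 5 in HOXA, 5 and 2 in HOXB, and 0 and 0 in HOXD. The window before HOXC had 1 and 0 BT549 peaks and the window after it 5 and 3. At 16 h HOXC had the most BT549 peaks of the 4 HOX windows, but with a score of at least 100 the counts were 1 in HOXC, 2 in HOXA, 1 in HOXB and 0 in HOXD.

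The highest HOXC scores in Hs578T lay below those of the other clusters. The values of 155 and 293 stood beside 783 and 1498 in HOXA, 219 and 471 in HOXB, and 379 and 953 in HOXD. Median scores at 16 h were 97.2 in HOXC, 214 in HOXA, 125 in HOXB and 294 in HOXD. At 1.5 h HOXC and HOXA were level, with medians of 68.5 and 68.7, beside 72.9 in HOXB and 150 in HOXD. Peaks of the HOXC window at 1.5 h also had the lowest share found again at 16 h, 56.2% beside 78.3%, 71.4% and 77.8%, with intervals that overlap. At 16 h the share with a 1.5 h peak was 52.6% in HOXC, 68.2% in HOXA, 42.9% in HOXB and 80.0% in HOXD. The Hs578T shares found in BT549 at the same time were 12.5% and 21.1% in HOXC, 0% and 9.09% in HOXA, 14.3% and 4.76% in HOXB, and 0% at both times in HOXD. None of these differences between clusters was tested.

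**Figure D4:**
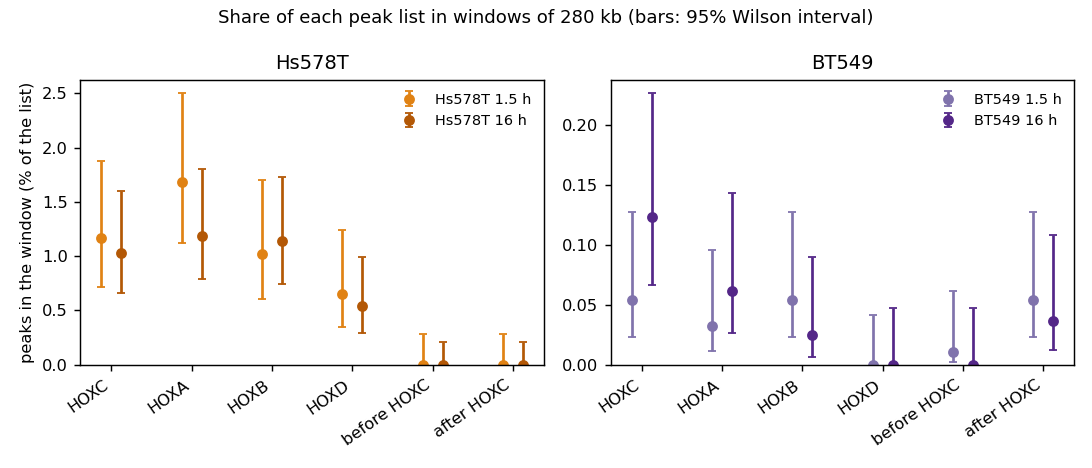
Peaks in each 280 kb window as a percent of the list, by line and time, with 95% Wilson intervals (counting error only); the vertical scales of the lines differ. In Hs578T the 4 HOX windows hold 0.541% to 1.68% of a list and the windows beside HOXC hold 0 peaks; in BT549 no window holds more than 0.123%.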

How the data were processed

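The submitters deposited 1 peak list per ChIP library, so peaks were called per library and not on pooled samples. Bowtie 1.1.0, Picard and MACS 1.4.2 with the hg19 build were used, per the submitters' processing notes; which role each had, and how the input was used, is not given in the sources used here. Each deposited score is the authors' peak-caller value. Its lowest value, 50.01, fits the scale of minus 10 times the log10 of the p-value that this MACS version writes. It depends on depth, which is unknown, and was used to describe and rank peaks within a list.

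Positions are given from 1. Peaks with a midpoint in the window were taken, overlap meant at least 1 bp, and touching peaks were joined into regions. Ranks and whole-list shares used all peaks. The intervals are 95% Wilson intervals. The windows of the other HOX clusters were set by hand, 280 kb each, from general knowledge of where these clusters lie on hg19. Gene names, the order from HOXC13 to HOXC8 and the promoter came from RefSeq tables on GRCh38.p14, whose gene coordinates were not compared with peaks. RefSeq lists HOXC4, HOXC5 and HOXC6 in that order after HOXC8. The order given above for HOXC6, HOXC5 and HOXC4 is from general knowledge. With 1 library per condition no test was made. The regions named are those of both times or both lines and the highest-scoring others; further peaks named were chosen after their values were seen. The members, lists and rules were chosen with earlier results of these data known. Alternatives were a score of at least 100, no peaks under 150 bp, equal list lengths, other overlap rules and other window limits. Counting of overlaps was tested on simulated data. Python 3.11.15, scipy 1.17.1 and matplotlib 3.10.9 were used.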

Additional observations from a re-analysis of the deposited data

Results flagged for a closer look

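The HOXC region from 54411590 to 54412271 was taken as the one listed in all 4 libraries. It was flagged since its score moved in opposite directions in the lines from 1.5 h to 16 h. The ratio of the 16 h to the 1.5 h score was 1.90 in Hs578T and 0.260 in BT549. With a single library per line and time, this difference was not tested. The median ratio over all regions of both times was 1.44 in Hs578T and 0.796 in BT549, the same directions as in this region.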

How the results depend on the processing

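Of 116 recomputed values of 15 results, 90 stayed within 1.5 times the count or within the interval of the share, and 26 moved. Window limits (any overlap, narrowed or widened by 20 kb) moved none of them. Any overlap and the wider window could add no peak, since the nearest peak outside in any list was 23.7 kb away. Narrowing left 15 Hs578T peaks at 1.5 h. With scores of at least 100 in all lists, the HOXC peaks numbered 4 and 9 in Hs578T and 3 and 1 in BT549, in 12 regions, of which 1 was in both lines and 0 in all 4 libraries. The share found at the other time was then 100% for Hs578T at 1.5 h and 0.00% for both BT549 lists, and the share found in the other line was 0.00% for both 16 h lists. With the 1373 highest-scoring peaks of each list, BT549 had 1 HOXC peak at each time, 0.00% of them at the other time, with 1 region in both lines and 0 in all 4 libraries. The share found in the other line was then 100% for BT549 at 1.5 h (1 of 1) and 0.00% for both 16 h lists. Without peaks under 150 bp, Hs578T had 9 HOXC peaks at 1.5 h. With an overlap of 50% of both peaks, the share found in the other line at 16 h was 5.26% for Hs578T and 10.0% for BT549. Counting peaks within 500 bp, it was 80.0% for BT549 at 1.5 h. With calls under 1 kb apart joined, chosen after seeing the data, BT549 had 3 places at 1.5 h. Fewer peaks enter under the limits on score, list length and width; the causes of the other shifts were not tested. Whole-list shares were not recomputed under these settings. Unknown depth and 1 library per condition limit every count.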
